A study of Mus musculus with 12 samples.

Results

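A set of 2425 genomic regions carried more 5-hydroxymethylcytosine (5-hmC) in mouse dorsal root ganglia after a dorsal column lesion (DCL) than in both other conditions of the study. Its members were chosen by measured values: a region entered the set if all 3 DCL libraries lay above all 3 control libraries, if it overlapped by at least 1 bp a region in which all 3 DCL libraries lay above all 3 libraries of a peripheral sciatic nerve lesion (PL), and if it overlapped no region listed as different between PL and control. The regions are 2425 of 35242 listed between DCL and control, and of 70430 in the 3 deposited tables together. Mitochondrial and pericentromeric sequence, Sfi1, Rn45s and a high-copy stretch of chromosome 2 were left out. They are called the gained regions here. Both contrasts chose them, so their differences are given as descriptions with no test, and their absence from the table of PL and control does not show that PL left them unchanged.

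The study profiled 5-hmC in genomic DNA of ganglia at lumbar levels L4, L5 and L6, collected 24 h after DCL, which cuts the central branch of sensory axons in the spinal cord, or after PL, which cuts their peripheral branch in the sciatic nerve. Uninjured control ganglia were the contralateral ganglia of the PL animals, so DCL came from other animals than control. Each library pooled ganglia of 3 animals, and there were 3 enriched libraries in each group. The ganglia hold neurons, satellite glia, Schwann cells, immune cells and vessels, so a change of the mark within cells and a change in the make-up of the tissue cannot be told apart in these values. The labels give no genotype, strain or age.

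5-hmC is made from 5-methylcytosine by the Tet dioxygenases and can be an intermediate of DNA demethylation, but it is also a lasting mark that is abundant in neurons, where it lies mainly in the bodies of genes and at enhancers. Sensory neurons of the dorsal root ganglion regrow the peripheral branch after injury and largely fail to regrow the central one. A peripheral lesion raises a known programme of regeneration-associated genes in these neurons, while a central lesion raises it little.

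The 8 gained regions nearest to a gene's start site lay in the class that the tables call proximal promoter, and 4 of them belong to genes with a single matched promoter. Their promoters are printed to show the CpG sites that could carry the mark near these regions. The sequences are from RefSeq, assembly GRCm38.p6, run from 250 bases before to 50 bases after the start site, and are written 5′ to 3′ on the gene's strand with every CG in capitals. The region coordinates of the study are on mm9, so the edges of a region are not drawn on them.
Ppy (minus strand of chr11:102101270-102101569): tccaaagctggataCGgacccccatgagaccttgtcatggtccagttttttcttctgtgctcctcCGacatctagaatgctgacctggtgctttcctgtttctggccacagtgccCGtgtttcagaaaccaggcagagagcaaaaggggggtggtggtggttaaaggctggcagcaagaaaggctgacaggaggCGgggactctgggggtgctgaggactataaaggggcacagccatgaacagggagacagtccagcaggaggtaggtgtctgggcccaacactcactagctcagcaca
Pkd1l2 (minus strand of chr8:117082400-117082699): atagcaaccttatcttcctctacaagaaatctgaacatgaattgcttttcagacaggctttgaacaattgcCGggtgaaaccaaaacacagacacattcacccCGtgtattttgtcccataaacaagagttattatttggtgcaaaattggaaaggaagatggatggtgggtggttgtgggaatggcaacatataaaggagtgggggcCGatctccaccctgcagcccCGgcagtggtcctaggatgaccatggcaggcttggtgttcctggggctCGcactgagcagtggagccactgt
2810433D01Rik (minus strand of chr11:102624367-102624666): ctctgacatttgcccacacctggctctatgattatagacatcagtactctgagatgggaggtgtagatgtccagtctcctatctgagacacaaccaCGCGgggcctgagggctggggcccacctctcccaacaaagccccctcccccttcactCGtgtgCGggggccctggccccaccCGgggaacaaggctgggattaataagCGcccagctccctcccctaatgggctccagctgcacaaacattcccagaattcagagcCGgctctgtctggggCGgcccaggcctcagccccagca
1700030A11Rik (plus strand of chr17:28905015-28905314): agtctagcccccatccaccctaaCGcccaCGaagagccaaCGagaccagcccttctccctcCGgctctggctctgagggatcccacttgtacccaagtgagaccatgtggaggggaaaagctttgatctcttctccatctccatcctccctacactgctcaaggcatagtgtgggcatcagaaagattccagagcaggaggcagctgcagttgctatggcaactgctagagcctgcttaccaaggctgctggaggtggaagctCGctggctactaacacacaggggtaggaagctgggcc
The 4 promoters hold 4, 5, 8 and 5 CpG sites in the order printed. Those of Ppy and Pkd1l2 contain the letters TATAAA and the one of 2810433D01Rik contains GGGCGG. Both motifs were searched on both strands, and 13.6% of all 32841 promoters of the table hold the first and 35.7% the second. A match is a match of letters and does not show that a factor binds.

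The microRNA genes Mir7227 and Mir7003 are among the promoters described below, and their mature products from RefSeq follow with the seed, bases 2 to 8, in capitals.
mmu-miR-7227-5p: uCUGAUGAcuuuuucauuga
mmu-miR-7227-3p: uCUGAAAAgggucaucggcaga
mmu-miR-7003-5p: uGUGGGGAgaagcugcggcag
mmu-miR-7003-3p: cCCCGGGUuuuccccacag
No pair of these 4 products shares a seed.

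In the authors' normalised read counts, the median gained region stood at 53.3, 26.9 and 20.4 in the 3 DCL libraries, in the order the table lists them, and at 12.7, 13.0 and 12.3 in the 3 control libraries. In the separately normalised table of PL and DCL, the median of the overlapped regions was 37.5, 18.8 and 14.1 in the DCL libraries and 6.82, 7.20 and 7.36 in the PL libraries. The control libraries and the PL libraries were each close together, and the DCL libraries were not. The first-listed DCL library was the highest of the 3 in 2061 gained regions (85.0%), and the third was the lowest in 1805. The first was also the highest in 86.1% of all regions higher after DCL outside high-copy loci. Among the other regions with DCL libraries fully above control, that share was 73.8%. Of all regions listed between DCL and control, 38.5% had their libraries fully apart in this direction, and of all regions listed between PL and DCL, 44.3% had all PL libraries below all DCL libraries.

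**Figure D1:**
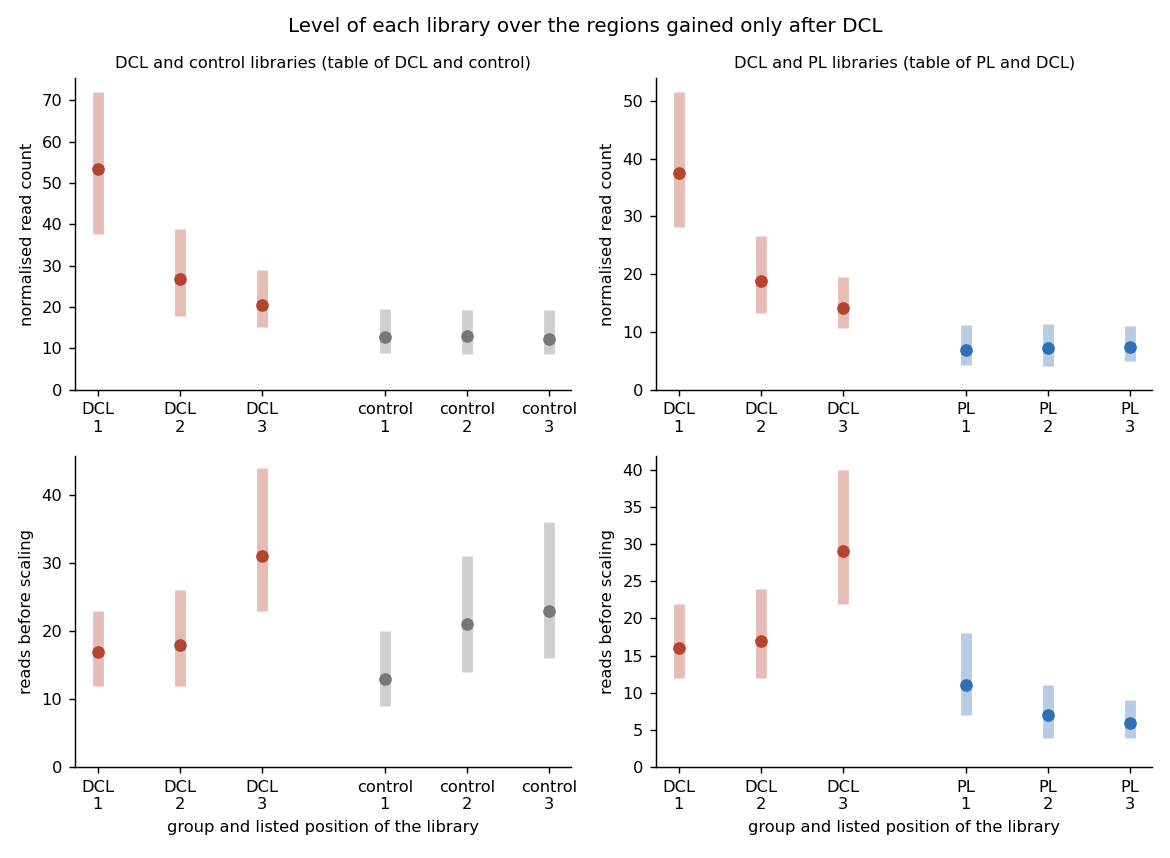
Level of each library over the gained regions. Points are medians and bars run over the middle quartiles, in normalised read counts (top) and in reads before the authors' scaling (bottom), for DCL and control (left) and for DCL and PL (right). In normalised counts every DCL median stands above every control and PL median, while before scaling the DCL medians of 17, 18 and 31 reads overlap with the control medians of 13, 21 and 23 reads. In the PL comparison before scaling, the DCL medians of 16, 17 and 29 reads stand above the PL medians of 11, 7 and 6 reads.

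The median log2 ratio of the mean DCL value to the mean control value, each with a pseudocount of 1, was 1.26, and the 5% and 95% points of its distribution were 0.86 and 1.95. Against the control mean, the DCL libraries taken singly gave medians of 1.85, 0.95 and 0.58, an SD of 0.65 over the 3 libraries. Without the first-listed DCL library the median was 0.81, and 1828 of the 2425 regions (75.4%) were at least 1.5-fold above control. The other regions with libraries fully apart and higher after DCL, 11041 in number, had a median of 1.22, and 0.91 without that library, when 80.6% of them were at least 1.5-fold above control. Over all regions higher after DCL, which need not have libraries fully apart, that share was 49.0%. In both fully separated sets each remaining DCL library lies above control by the rule. A positive ratio without the first-listed DCL library was thus fixed in advance. Against PL the gained regions had a median log2 ratio of 1.56, which was 1.09 without the first-listed DCL library. Leaving a library out loosens the rule, so the count can only rise and does not test the set. It was 2429 in place of 2425 without the first-listed DCL library. Leaving out the third, which was most often the lowest, gave 7759.

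The margin between the groups was narrow in most regions. The log2 ratio of the lowest DCL to the highest control library had a median of 0.28, and in 616 regions (25.4%) these 2 libraries were within 1.1-fold. In 494 regions the margin was at least 1.5-fold and in 89 at least 2-fold. Just inside the rule were regions of Rps10 and Tshz3. Rps10, which encodes a ribosomal protein, had 104, 40.3 and 32.2 normalised counts in DCL against 28.3, 32.2 and 29.4 in control, and Tshz3, a zinc finger transcription factor gene, had 75.3, 44.8 and 32.2 in DCL against 20.5, 32.2 and 26.2 in control. Just outside it were regions of Ahcyl2, with 62.7, 23.9 and 21.1 in DCL against 17.5, 21.1 and 20.8 in control, and of Gsr, with 81.5, 32.9 and 26.3 in DCL against 26.3, 26.0 and 18.7 in control. In all 4 the first-listed DCL library was far above the other DCL libraries, and the lowest DCL library was level with the highest control library. The adjusted p in the authors' deposited table had a median of 0.0007 over the gained regions and was 0.05 or more in 31 of them. A further 1810 regions met every other condition of the rule but had DCL and control libraries that overlapped.

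Low normalised values were whole multiples of a step that is the value of 1 read, 3.14, 1.49 and 0.658 in the DCL libraries and 0.975, 0.62 and 0.534 in the control libraries. The first-listed DCL library thus carried the fewest reads for its normalised level, and it held fewer than 10 reads in 349 gained regions (14.4%). Before scaling, the reads summed over the 3 DCL libraries exceeded those of control in 1732 gained regions (71.4%). All 3 DCL libraries lay above all 3 control libraries before scaling in 73 gained regions (3.01%), against 0.553% of all regions listed between DCL and control. Among all regions listed between PL and DCL, 29.9% had all PL libraries below all DCL libraries before scaling. The totals of the libraries were not analysed here.

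For 718 gained regions the overlapped region had the same start and end, and the DCL reads were identical in both tables. Over these the median log2 ratio, here with no pseudocount, was 1.60 for DCL over control and 1.92 for DCL over PL. Over all gained regions the medians with no pseudocount were 1.33 and 1.7. The ratio of PL to control that the pair implies had a median log2 of -0.31, with quartiles of -0.57 and -0.07. PL lay below control in 573 of the 718 (79.8%) and within 1.5-fold of it in 531 (74.0%). Both ratios share the DCL libraries, and this is a description of regions chosen for a low PL value.

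Of the 2425 gained regions, 1313 lay in gene bodies, which is 54.1% with an exact 95% binomial interval of 52.1 to 56.1. Promoters held 206, or 8.49% (7.42 to 9.68), and intergenic sequence held 906, or 37.4% (35.4 to 39.3). The 11041 other fully separated gains were placed much the same, with 54.4% in gene bodies, 9.47% in promoters and 36.1% between genes. The 6034 regions lower after DCL had 59.4%, 7.95% and 32.6% in these classes. The intervals cover counting error over regions alone. Within the promoter class, 156 of the gained regions were of the farthest kind, 42 of the middle kind and 8 of the kind nearest the start site.

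**Figure D2:**
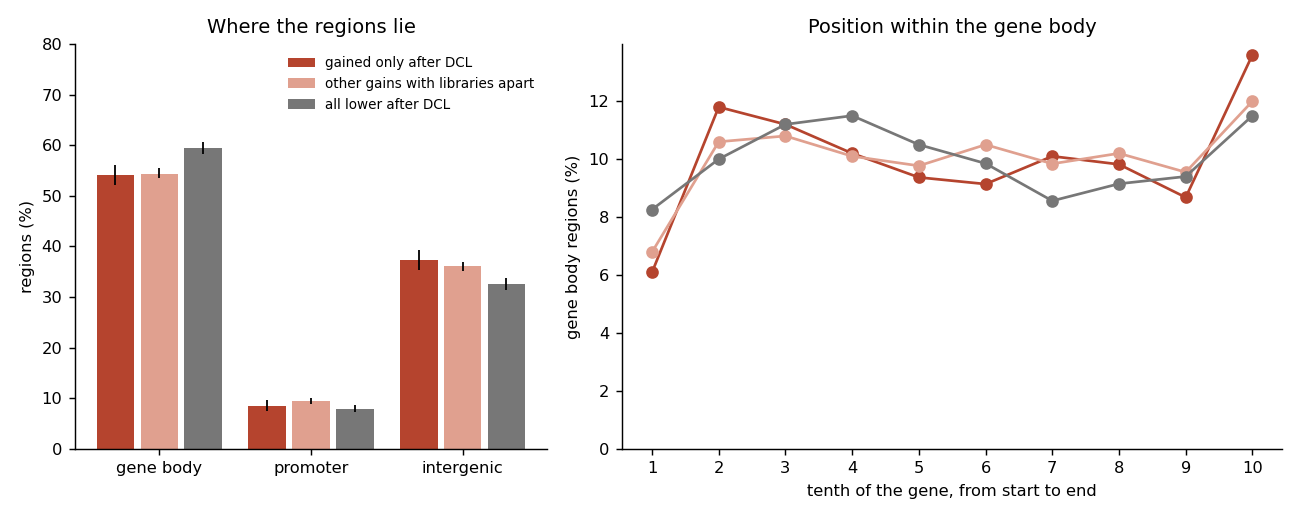
Percent of regions placed in a gene body, a promoter or between genes (left, with exact 95% binomial intervals), and percent of gene body regions in each successive 10% of the gene from start to end (right). Gained regions and the other gains with libraries apart lie close together in the left panel, and in the right panel the gained regions have their lowest share, 6.09%, in the first 10% of the gene and their highest, 13.6%, in the last. Regions up to 2999 bp after the start site can be placed in a promoter class, which lowers the share of the first 10% in every set.

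Gained regions in gene bodies lay a median of 29685 bp from the listed start site, and 277 of the 1313 (21.1%) lay within 10000 bp of it. The first 10% of the gene held 6.09% of them and the last 10% held 13.6%. The promoter classes reach to 2999 bp after the start site, and regions placed there are not counted as gene body. This lowers the share of the first 10% in every set. The other fully separated gains had 6.79% and 12.0% in these stretches, a median distance of 32346 bp and genes with a median length of 83640 bp, against 75937 bp for the gained regions. Regions lower after DCL lay farther into longer genes, with a median distance of 45622 bp and a median gene length of 117871 bp. The gained regions had a median length of 260 bp, from 200 to 1040 bp. They were scattered: neighbours on a chromosome were a median of 419840 bp apart, and 119 (4.91%) had another gained region within 10000 bp. Every autosome and the X chromosome held some, with 7.38% on chromosome 2 and 1.07% on the X chromosome, where the other fully separated gains had 8.26% and 0.869%.

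The widest margins over control among regions in named genes belonged to Farp2, Ephb1, Optc, Kank1, Rorb, Nt5dc3, Trerf1, Itpkb, Mipol1 and Mmd2. All 10 lay in gene bodies. Farp2 encodes an activator of Rac that acts downstream of plexin receptors in semaphorin signalling. Its region (chr1:95496241-95496440, mm9) had 59.6, 11.9 and 13.2 normalised counts in DCL against 2.92, 1.24 and 2.67 in control. In the table of PL and DCL it had 44.5, 8.86 and 9.75 in DCL against 1.86, 2.06 and 4.91 in PL. The lowest DCL library was more than 3-fold above the highest control library, and the log2 ratio of means was 3.16, or 2.05 without the first-listed DCL library.

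Ephb1 encodes a receptor tyrosine kinase for ephrin-B ligands that guides growing axons. Its region (chr9:102063161-102063460) had 22.0, 14.9 and 17.8 in DCL against 4.87, 4.96 and 4.81 in control. The corresponding values were 16.4, 11.1 and 13.2 in DCL against 4.34, 0 and 2.45 in PL. The 3 DCL libraries were close together here in normalised counts, and the log2 ratio to control was 1.71, or 1.56 without the first-listed one. In reads before scaling they were not, with 7, 10 and 27 in DCL against 5, 8 and 9 in control.

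Kank1 encodes a scaffold at focal adhesions that restrains actin assembly. Its region (chr19:25339361-25339680) had 62.7, 23.9 and 19.7 in DCL against 3.90, 6.82 and 7.48 in control. In Itpkb, a kinase gene of inositol phosphate signalling, the region (chr1:182335861-182336160) had 34.5, 22.4 and 21.7 in DCL against 7.80, 6.82 and 8.55 in control. In both the groups lay well apart with the first-listed DCL library highest. Rorb, the gene of an orphan nuclear receptor, had 34.5, 14.9 and 15.1 in DCL against 4.87, 5.58 and 5.34 in control. Optc, which encodes opticin, a small leucine-rich proteoglycan known from the eye, had 22.0, 11.9 and 12.5 in DCL against 2.92, 3.72 and 4.27 in control. The log2 ratios of Kank1, Itpkb, Rorb and Optc were 2.37, 1.64, 1.85 and 1.83.

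Mipol1 had the widest spread within DCL of these 10, with 104, 43.3 and 13.2 in DCL against 1.95, 4.96 and 4.81 in control. Its mean was 53.3 ± 46.0 in DCL and 3.91 ± 1.70 in control (SD, n = 3 each). In Nt5dc3 the DCL libraries stood together in normalised counts, with 18.8, 13.4 and 15.8 in DCL against 4.87, 4.96 and 4.81 in control. Its reads before scaling were 6, 9 and 24 in DCL and 5, 8 and 9 in control. Mmd2 differed from the rest in that the first-listed DCL library was the lowest, with 12.6, 20.9 and 17.1 in DCL against 2.92, 4.34 and 4.81 in control. Its log2 ratio was 1.83, and 1.99 without that library. The first-listed value of Mmd2 rested on 4 reads, so its place among the DCL libraries is imprecise. The reads were 4, 14 and 26 in DCL and 3, 7 and 9 in control. Trerf1 is described with the genes of several regions.

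**Figure D3:**
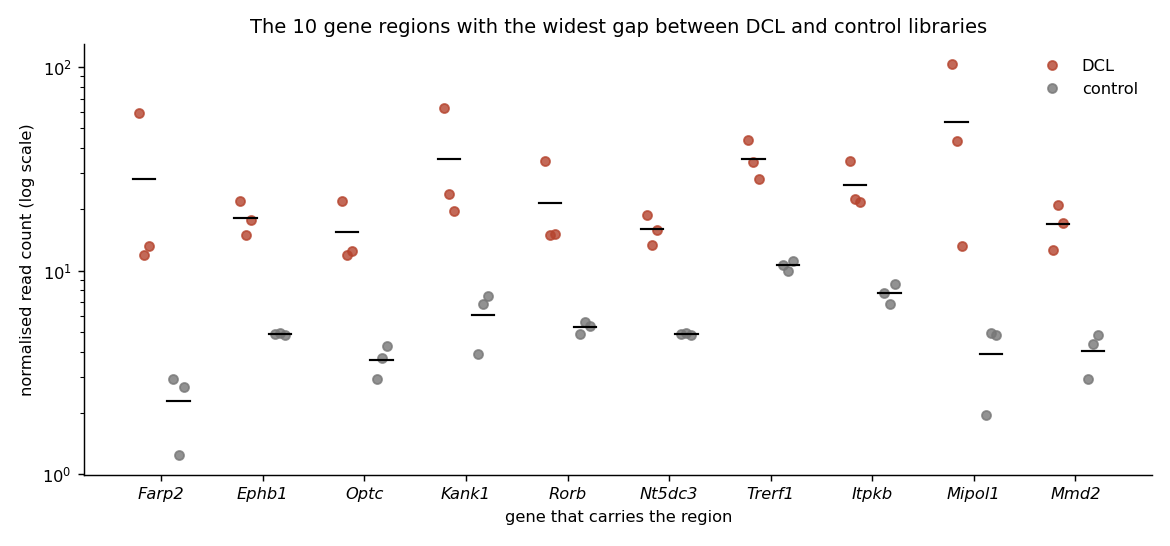
Normalised read counts (log scale) of the 10 regions in named genes with the widest margin between DCL and control. Points are libraries and bars are group means of 3 libraries, with DCL left of control for each gene. By the rule no control library reaches a DCL library in any of the 10, and the first-listed DCL library stands far above the others in Farp2, Kank1 and Mipol1.

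Promoter regions were next ranked by the adjusted p in the authors' deposited table, with ties ordered by the margin between nearest libraries, and the first 10 were Uba1, 9530059O14Rik, Gm19897, Rbm10, Cenpm, Mir7003, Pkd1l2, Aatk, Rrad and Zc3hav1, each at 0.000267 in the authors' deposited table. Uba1 encodes the enzyme that activates ubiquitin for most of its conjugation in the cell, and Rbm10 encodes an RNA-binding regulator of splicing. The Uba1 region (chrX:20239061-20239260), 862 bp before the listed start, had 37.6, 17.9 and 11.2 in DCL against 3.90, 4.34 and 4.81 in control. The Rbm10 region (chrX:20197161-20197420), 2405 bp after the listed start, had 40.8, 19.4 and 13.8 in DCL against 3.90, 4.96 and 6.41 in control. These regions were 41640 bp apart on the X chromosome, and in both the lowest DCL library was at least 2-fold above the highest control library. Against PL, Uba1 had 28.1, 13.3 and 8.29 in DCL and 2.48, 2.06 and 3.68 in PL.

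The region of the uncharacterised transcript 9530059O14Rik was even across DCL libraries in normalised counts, with 18.8, 16.4 and 19.7 in DCL against 4.87, 7.44 and 3.74 in control. It held 6, 11 and 30 reads in DCL before scaling, against 5, 12 and 7 in control. The region of Gm19897 had 53.3, 29.9 and 32.2 in DCL against 11.7, 14.2 and 9.62 in control. Cenpm, which encodes a protein of the centromere, had 25.1, 29.9 and 11.8 in DCL against 5.85, 4.96 and 3.21 in control. In normalised counts the groups stood apart in all 3, with the smallest margin, a log2 ratio of 0.91 between the nearest libraries, at Cenpm.

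Zc3hav1, the gene of an antiviral protein that binds CpG-rich RNA, had the highest level of the 10, with 119, 46.3 and 25.7 in DCL against 11.7, 9.30 and 15.5 in control. Mir7003 had 53.3, 14.9 and 13.8 in DCL against 5.85, 7.44 and 2.67 in control. Without the first-listed DCL library the log2 ratios of these were 1.49 and 1.28, against 2.30 and 2.17 with it. Aatk, a kinase gene expressed in neurons, had 50.2, 26.9 and 21.7 in DCL against 11.7, 13.0 and 10.7 in control. Rrad, which encodes a small GTPase that restrains voltage-gated calcium channels, had 50.2, 17.9 and 20.4 in DCL against 9.75, 10.5 and 10.7 in control. At Aatk and Rrad the first-listed DCL library was more than 3-fold above the control mean and the other 2 were less than 3-fold above it.

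Of the 8 regions in the class nearest the start site, the one of Pkd1l2, a polycystin family gene, lay 71 bp before the start and had 50.2, 26.9 and 21.7 in DCL against 7.80, 9.30 and 12.8 in control. The region of Ppy, which encodes pancreatic polypeptide, lay 236 bp before the start and had 31.4, 29.9 and 20.4 in DCL against 10.7, 11.8 and 11.2 in control. In normalised counts the DCL libraries stood close together at Ppy and apart at Pkd1l2. Those of 2810433D01Rik were closest of all 8, with 22.0, 19.4 and 20.4 in DCL against 11.7, 6.82 and 2.67 in control. Reads before scaling at 2810433D01Rik were 7, 13 and 31 in DCL and 12, 11 and 5 in control. At Ppy they were 10, 20 and 31 in DCL and 11, 19 and 21 in control. The region of 1700030A11Rik had 62.7, 37.3 and 29.6 in DCL against 24.4, 17.4 and 13.9 in control. These are the 4 genes whose promoters are printed above.

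Agtpbp1 encodes a peptidase that removes glutamates from tubulin, first found through its rise in motor neurons after axotomy, and its loss causes Purkinje cell degeneration in mice. Its region (chr13:59645461-59645780), 192 bp after the start, had 78.4, 46.3 and 40.8 in DCL against 36.1, 22.3 and 23.0 in control. The nearest libraries of the groups were close, and the log2 ratio of means was 1.00. Mir7227 had 47.0, 53.8 and 30.3 in DCL against 24.4, 23.6 and 21.9 in control. Ccdc63 had 138, 73.2 and 54.6 in DCL against 31.2, 34.1 and 49.7 in control, and Eif4e1b, a relative of the cap-binding protein eIF4E known from oocytes, had 62.7, 17.9 and 13.2 in DCL against 4.87, 6.82 and 10.7 in control. All 8 log2 ratios lay between 0.88 and 1.93.

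**Figure D4:**
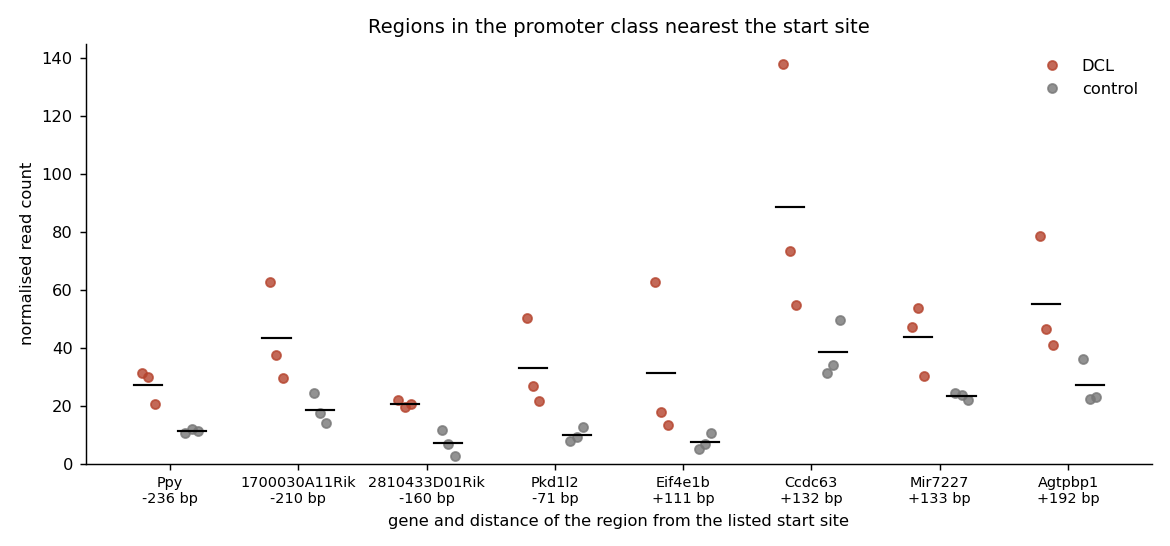
Normalised read counts of the 8 gained regions in the promoter class nearest the start site, ordered by listed distance from it in bp. Points are libraries and bars are group means of 3 libraries, with DCL left of control. The groups do not overlap in any region, by the rule, and the margin is smallest at Ccdc63 and Agtpbp1.

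The promoters of genes with a gained region in a promoter class were matched to RefSeq for 161 of 205 genes, with 238 promoters. Their median CpG count was 14 in 300 bases, against 16 in promoters of other genes with a region higher after DCL there and 7 over all 32841 promoters. Their median GC content was 58.3%, against 58.7% and 52.7%. The letters GGGCGG stood in 49.2% of them, against 54.0% and 35.7%, and TATAAA in 9.66%, against 8.17% and 13.6%. CACGTG, TGACGTCA and TGACTCA stood in 6.72%, 0.42% and 7.14% of them, against 9.49%, 1.92% and 4.53% in promoters of the other genes with a higher region there. All motifs were searched on both strands. In these counts the promoters near gained regions stood closer to those of the other genes with a higher region there than to all promoters. The exceptions were CACGTG, TGACGTCA and TGACTCA, which 7.15%, 1.79% and 5.20% of all promoters held.

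The 1519 gained regions with a gene name fell in 1371 genes, of which 1243 had 1, 111 had 2, 14 had 3 and 3 had 4. The 3 genes with 4 were Ksr1, Trerf1 and Wbscr17. Genes with a gained region had a median length of 56162 bp, against 33007 bp for the 7024 other genes with a region higher after DCL. A region lower after DCL was also listed in 503 of them (36.7%), against 22.1% of the other genes. A region listed between PL and control, elsewhere in the gene, was found in 701 (51.1%), against 37.6%. Length was not matched in these comparisons.

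Ksr1 encodes a scaffold of the Raf, MEK and ERK kinases. Its 4 regions lay on chromosome 11 between 78911261 and 78946460. The highest had 138, 100 and 77.0 in DCL against 70.2, 76.2 and 64.6 in control, and there the nearest libraries nearly met. Another had 65.9, 46.3 and 33.6 in DCL against 23.4, 21.7 and 26.7 in control. The log2 ratios of the 4 ran from 0.57 to 1.29, and 1 of them had an adjusted p of 0.0737 in the authors' deposited table.

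Trerf1 encodes a zinc finger regulator of transcription. Its most separated region (chr17:47466381-47466740) had 43.9, 34.3 and 28.3 in DCL against 10.7, 9.92 and 11.2 in control. Against PL that region had 32.8, 25.5 and 21.0 in DCL and 6.20, 0 and 9.81 in PL. In normalised counts the DCL libraries were close together and each more than 2-fold above every control library. The reads before scaling were 14, 23 and 43 in DCL and 11, 16 and 21 in control. The other 3 regions of Trerf1 had log2 ratios of 0.89, 1.09 and 1.13.

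Wbscr17 encodes a transferase that starts sugar chains on serine and threonine. Its region from 131654321 to 131654540 on chromosome 5 had 50.2, 32.9 and 37.5 in DCL against 23.4, 19.8 and 17.1 in control. A second, from 131766461 to 131766680, had 62.7, 11.9 and 13.2 in DCL against 8.77, 9.92 and 11.8 in control. In the second the 2 lower DCL libraries were almost at the control level, and its log2 ratio was 1.44, or 0.28 without the first-listed library. The 14 genes with 3 regions included the ephrin receptor genes Ephb1 and Ephb2, the transcription factor genes Foxp1 and Tead1, the RNA-binding protein gene Msi2, the adhesion receptor gene Tenm4 and Mllt10, whose product binds the histone methyltransferase Dot1l. The remaining 7 were Arhgap24, Cdk17, Col23a1, Dlgap1, Rab30, St6gal1 and Zdhhc14.

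Genes of 16 lists were looked up next. Over all protein-coding genes, 1298 of 21896 (5.93%) carried a gained region, and 1298 of the 7754 with any region higher after DCL (16.7%). The second share is used as the background below, since a gene without a higher region cannot carry a gained one. It does not even out gene length. Genes with a gained region had a median length of 56162 bp, against 33007 bp for the other genes with a higher region. The lists were not matched for length. A list's count is a description, and no list was tested.

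**Figure D5:**
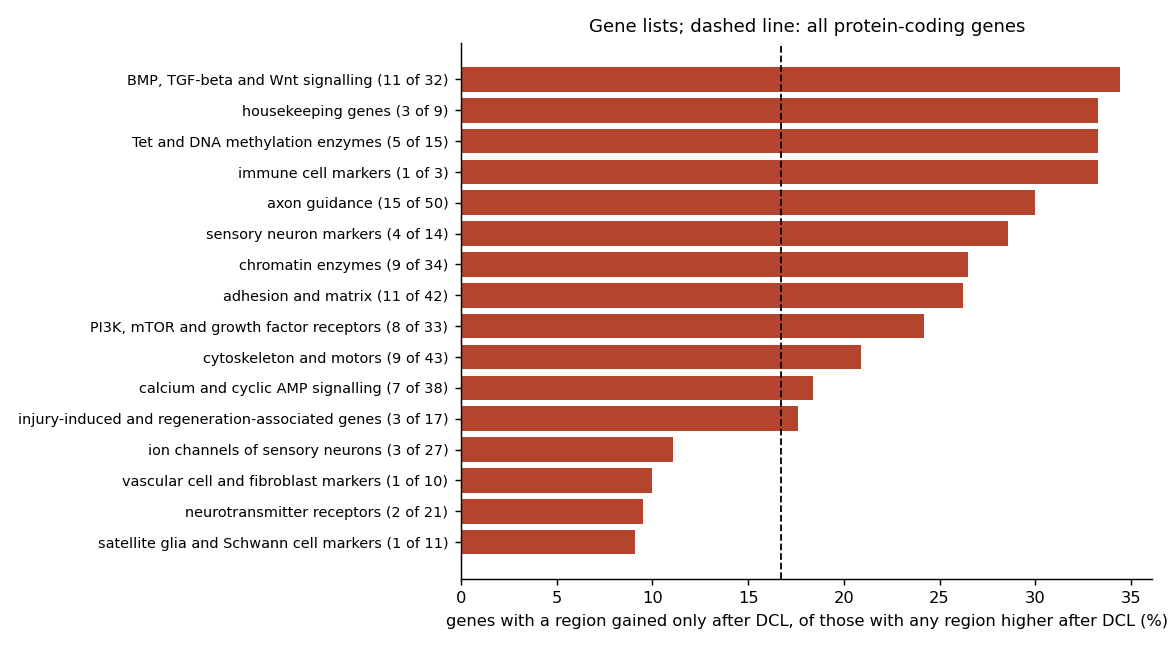
Percent of genes with a gained region among the genes of each list with any region higher after DCL, with the counts in brackets. The dashed line is the 16.7% of all protein-coding genes. Receptors, channels, vascular markers and glial markers stand below the line and the other 12 lists above it, among them housekeeping genes at 3 of 9 and immune markers at 1 of 3. Most counts are small, gene length was not matched, and no count was tested.

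In the list of axon guidance genes, 50 of 70 carried a region higher after DCL, 30 one that was lower, and 15 carried gained regions, 19 in number. The log2 ratios of the 19 ran from 0.75 to 1.95 with a median of 1.14, against 1.26 over all gained regions. Of the 8 genes over all lists in which the lowest DCL library was at least 1.5-fold above the highest control library, 5 were of this list: Ephb1, Ntn1, Sema3a, Sema4f and Srgap1. This list is the largest, with 15 of the 89 list genes that carried a gained region, and the margin was reached by 270 of all 1371 genes with one. The share was not tested. Sema4f, a transmembrane semaphorin gene, had 53.3, 14.9 and 13.8 in DCL against 7.80, 4.96 and 6.95 in control. Srgap1, which encodes an effector of Slit and Robo signalling that inactivates small GTPases, had 56.5, 40.3 and 40.1 in DCL against 21.4, 17.4 and 21.9 in control.

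Sema3a encodes a secreted semaphorin that repels sensory axons, and its region had 69.0, 26.9 and 24.4 in DCL against 14.6, 8.06 and 14.4 in control. Ntn1 encodes netrin, a secreted guidance cue, and its region had 31.4, 20.9 and 13.2 in DCL against 4.87, 8.06 and 8.01 in control. These were singled out after their values were seen. The list's other genes with gained regions were Ablim1, Dpysl2, Ephb2, Nrp2, Robo1, Sema5b, Sema6d, Srgap2, Srgap3 and Trio. They include receptors for semaphorins and Slits, namely Nrp2 and Robo1, and the semaphorin effector Dpysl2. At Sema6d the nearest libraries nearly met, with 81.5, 34.3 and 50.7 in DCL against 31.2, 34.1 and 27.8 in control.

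In the list of BMP, TGF-beta and Wnt signalling, 11 genes carried a gained region of 32 with any higher region and 42 in the list. They were the receptor genes Bmpr2, Tgfbr3 and Lrp6, the signal transducers Smad1, Smad3 and Smad4, the inhibitors Smad6, Smad7 and Smurf1, and the transcription factors Lef1 and Tcf7l1 that act in the Wnt pathway. Bmpr2, the type II receptor for BMPs, had 53.3, 25.4 and 17.1 in DCL against 8.77, 12.4 and 4.81 in control. Smad4, the partner of the receptor-activated Smads, had 56.5, 58.2 and 27.0 in DCL against 9.75, 18.6 and 16.6 in control. Lrp6, a Wnt co-receptor, had 65.9, 16.4 and 15.8 in DCL against 12.7, 8.68 and 12.8 in control. The groups were apart at each, least so at Lrp6, where the log2 ratio was 1.44, or 0.47 without the first-listed DCL library. The 11 regions had log2 ratios from 0.77 to 1.90, and none reached a 1.5-fold margin between nearest libraries.

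Among adhesion and matrix genes, 11 of 42 with any higher region carried a gained one. Nlgn1, which encodes a postsynaptic adhesion protein that binds neurexins, had 81.5, 28.4 and 21.1 in DCL against 5.85, 10.5 and 14.4 in control. Itga9, an integrin subunit gene, had 72.1, 85.1 and 22.4 in DCL against 14.6, 19.8 and 21.4 in control. Cntn1, which encodes contactin, an adhesion protein of axons, had 116, 32.9 and 28.9 in DCL against 27.3, 27.9 and 25.1 in control. The last-listed DCL library was close to control at Itga9, as were the last 2 at Cntn1. The others were Cntn3, Ctnnd2, Dag1, Itgb1, Itgb4, Ncam2, Nrxn2 and Tnr.

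Of the PI3K, mTOR and growth factor receptor genes, 8 of 33 with any higher region carried a gained one, among them Akt2, Eif4ebp1, Erbb3, Igf1r, Ntrk2, Pik3cd and Tsc2. Akt2, a kinase gene downstream of PI3K, had 40.8, 29.9 and 16.4 in DCL against 12.7, 8.68 and 11.2 in control. Pik3cd, a catalytic subunit gene of PI3K, had 110, 37.3 and 43.4 in DCL against 33.1, 33.5 and 35.3 in control, with a log2 ratio of 0.88, or 0.24 without the first-listed DCL library. The groups were apart at Akt2 and nearly met at Pik3cd.

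In the list of Tet and DNA methylation enzymes, 5 of 15 genes with any higher region and of 24 in all carried a gained one: Tet2, Dnmt3a, Uhrf1, Mbd4 and Idh2. Tet2 is itself a writer of 5-hmC, and its region (chr3:133194261-133194600) had 75.3, 41.8 and 46.1 in DCL against 24.4, 31.0 and 27.8 in control. Against PL it had 42.1, 33.2 and 32.2 in DCL and 13.6, 17.5 and 14.7 in PL. By the rule no DCL library overlapped with control or PL, and the log2 ratio to control was 0.95, or 0.65 without the first-listed library. Before scaling the libraries did overlap at Tet2, with 24, 28 and 70 reads in DCL against 25, 50 and 52 in control. Dnmt3a, a de novo DNA methyltransferase gene, had 43.9, 13.4 and 13.2 in DCL against 6.82, 10.5 and 11.8 in control. Uhrf1, which encodes a cofactor that brings maintenance methylation to newly copied DNA, had 50.2, 26.9 and 17.1 in DCL against 15.6, 12.4 and 14.4 in control. The margin was narrow at both.

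The other Tet genes carried no gained region. Tet3 had 3 regions higher and 3 lower after DCL, and 1 of the higher ones had libraries fully apart, with 47.0, 26.9 and 54.6 in DCL against 24.4, 19.2 and 26.2 in control, but it overlapped no region listed between PL and DCL. Tet1 had 1 region higher and 2 lower. These values are levels of the mark on the DNA of the genes and say nothing of their expression.

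Of the chromatin enzyme genes, 9 of 34 with any higher region carried a gained one. Ash1l, a histone methyltransferase gene, was the most separated in normalised counts, with 15.7, 23.9 and 29.6 in DCL against 5.85, 6.20 and 4.81 in control, and here the first-listed DCL library was the lowest. Reads before scaling at Ash1l were few and overlapped, with 5, 16 and 45 in DCL against 6, 10 and 9 in control. Against PL the overlapped Ash1l region had 11.7, 17.7 and 21.9 in DCL and 1.86, 10.3 and 1.23 in PL. Chd3, a nucleosome remodeller gene, had 43.9, 19.4 and 11.2 in DCL against 5.85, 8.68 and 4.81 in control. Kmt2c, a methyltransferase gene that acts at enhancers, had 72.1, 31.4 and 23.7 in DCL against 14.6, 19.2 and 19.2 in control. The others were Arid1b, Ezh1, Hdac4, Hdac9, Kat2b and Kdm6b. The log2 ratios ran from 0.80 to 1.86.

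Of the cytoskeleton and motor genes, 9 of 43 with any higher region carried a gained one. Arhgef12, which encodes an activator of RhoA downstream of plexin-B receptors, had 37.6, 17.9 and 17.1 in DCL against 10.7, 4.96 and 6.95 in control. Rhoa itself, the GTPase that drives growth cone collapse, had 72.1, 34.3 and 13.2 in DCL against 7.80, 10.5 and 6.41 in control. Dock1, an activator of Rac, had 119, 49.3 and 46.1 in DCL against 37.0, 29.8 and 35.8 in control. The log2 ratios of Arhgef12, Rhoa and Dock1 were 1.56, 2.14 and 1.04, and when the first-listed DCL library was left out they were 1.12, 1.42 and 0.47. Of the calcium and cyclic AMP genes, 7 of 38 carried a gained region, among them Ryr1, a calcium release channel gene, with 53.3, 13.4 and 13.8 in DCL against 9.75, 6.20 and 5.88 in control, and Pde4d, which encodes a phosphodiesterase that degrades cyclic AMP, with 62.7, 14.9 and 11.2 in DCL against 8.77, 9.92 and 5.34 in control. Cacnb4, a calcium channel subunit gene, had 75.3, 17.9 and 17.8 in DCL against 16.6, 13.0 and 9.62 in control, and its last 2 DCL libraries nearly met the highest control library.

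Of the injury-induced and regeneration-associated genes, 17 of 43 had any region higher after DCL and 3 carried a gained one. They were Basp1, which encodes a growth cone protein, with 40.8, 13.4 and 13.2 in DCL against 5.85, 9.30 and 10.2 in control; Smad1, a BMP transducer known to promote sensory axon growth, with 65.9, 17.9 and 19.1 in DCL against 13.7, 17.4 and 14.96 in control; and Klf9, a transcription factor gene that limits axon growth, with 59.6, 28.4 and 28.9 in DCL against 22.4, 22.9 and 23.5 in control. The last 2 DCL libraries were close to control at Smad1 and Klf9, whose log2 ratios without the first were 0.26 and 0.31. The adjusted p of Klf9 was 0.0962 in the authors' deposited table. Atf3, Jun, Gap43, Sprr1a and Bdnf, the genes most often used to follow the injury response, carried no region between DCL and control in either direction, and Sox11 carried 1 that was lower. Of all protein-coding genes, 7754 of 21896 (35.4%) carried any region higher after DCL, so having no higher region was the more common outcome.

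Untested shares of receptor and channel genes lay below the 16.7% of all protein-coding genes. Of the neurotransmitter receptor genes with any higher region, 2 of 21 carried a gained one, the glutamate receptor genes Grik3, with 69.0, 62.7 and 39.5 in DCL against 25.3, 32.2 and 32.0 in control, and Grin2b, with 40.8, 17.9 and 13.2 in DCL against 6.82, 6.20 and 11.8 in control. Of the ion channel genes, 3 of 27 did. Kcnd3, a potassium channel gene, had 91.0, 40.3 and 57.9 in DCL against 32.2, 26.6 and 19.2 in control. Kcnma1, the gene of the large-conductance calcium-activated potassium channel, had 81.5, 59.7 and 30.9 in DCL against 26.3, 28.5 and 28.3 in control. Trpv1, the capsaicin receptor gene of pain-sensing neurons, had 22.0, 13.4 and 23.0 in DCL against 11.7, 10.5 and 5.88 in control. By the rule the groups did not overlap in any of the 3, but the nearest libraries nearly met at Kcnma1. The log2 ratio between nearest libraries was 0.11 there, 0.19 at Trpv1 and 0.32 at Kcnd3. The DCL libraries of Trpv1 were closer together than those of Kcnd3 and Kcnma1 in normalised counts. Trpv1 held 7, 9 and 35 reads in DCL before scaling, against 12, 17 and 11 in control.

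Among 30 marker genes of sensory neurons, 14 had any higher region and 4 a gained one: Trpv1, Gfra2, Ret and Ntrk2. Ret encodes the receptor for GDNF family ligands, Gfra2 its partner for neurturin, and Ntrk2 the receptor for BDNF. Ret had 56.5, 11.9 and 17.1 in DCL against 2.92, 10.5 and 8.01 in control, and Ntrk2 had 25.1, 32.9 and 19.7 in DCL against 13.7, 13.0 and 8.01 in control. By the rule the groups did not overlap at either, and the log2 ratio between nearest libraries was 0.17 at Ret and 0.50 at Ntrk2.

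Each marker list of the other cells of the ganglion held 1 gene with a gained region, counts too small to set against the background. Of 24 markers of satellite glia and Schwann cells, 11 had any higher region and 1, Erbb3, a gained one, with 69.0, 50.8 and 33.6 in DCL against 32.2, 26.0 and 30.4 in control. Of 28 immune markers, 3 had a higher region and 1, Cd8a, a gained one, with 43.9, 26.9 and 14.5 in DCL against 9.75, 13.6 and 11.8 in control. Of 18 vascular and fibroblast markers, 10 had a higher region and 1, Flt1, a gained one, with 59.6, 44.8 and 26.3 in DCL against 17.5, 21.7 and 18.2 in control. DNA regions give no level of expression, so the part of cell composition in the gained regions was not tested.

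Housekeeping genes were looked up for comparison, and 3 of 28 carried a gained region, of 9 with any higher region. Gusb, a lysosomal enzyme gene, had 40.8, 19.4 and 17.1 in DCL against 9.75, 11.2 and 11.2 in control. Vcp, an ATPase gene of protein quality control, had 59.6, 34.3 and 22.4 in DCL against 16.6, 17.4 and 17.6 in control. Gapdh had 78.4, 61.2 and 36.2 in DCL against 34.1, 36.0 and 28.9 in control, where the nearest libraries nearly met. Their log2 ratios, from 0.81 to 1.19, lay within the range of the signalling lists.

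The rule with the directions turned round found fewer regions. Lost after DCL with all libraries apart from both control and PL, and in no region listed between PL and control, were 422 regions, against the 2425 gained. Outside high-copy loci, 6034 regions were lower after DCL and 28997 were higher, so far fewer regions could enter the lost set. Of the 422, 65.4% lay in gene bodies (60.7 to 69.9) and 28.0% between genes (23.7 to 32.5). Gained after PL by the same rule, against control and DCL and in no region listed between DCL and control, were 533 regions. Overlap with any of 35242 regions barred entry to this PL set. How many candidates it was drawn from is not given here. The counts of 533 and 2425 are thus not shares of like pools, and a difference between the lesions was not tested. Regions with libraries apart from control and higher after both lesions numbered 356. Of the regions listed between DCL and control, 82.9% were higher after DCL, and the part of that balance in these counts was not tested.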

How the data were processed

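5-hmC was measured in 9 enriched libraries, 3 each of DCL, PL and control, grouped by the labels, and the 3 input libraries were not used. Per the labels' protocols, sheared DNA was glucosylated at 5-hmC, linked to biotin and captured on streptavidin beads. The build mm9 and the programs MACS2 2.1.1, SAMtools 0.1.19 and Bowtie2 2.2.0 stand, with no role given, in the notes of the submitters on processing, and the caller of the regions is not given in the sources used here. Per the file headers, the authors deposited 3 tables of regions, 1 for each pair of groups, with normalised read counts of 3 libraries in each cell and the mean signal of each group. The ratio of a group to a background, the log2 fold change and the p-value columns are those of the authors' deposited tables, and their test is not named there. The tables were normalised separately, list only regions selected for a difference, and carry no library number, so libraries are called by the order listed.

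Low values came out as whole multiples of the value of 1 read, within a tolerance of 0.1 of a read, in all libraries, which gives reads before scaling but no sequencing total. No count model was fitted, since unselected windows are not in the tables analysed. Log2 ratios compare group means with a pseudocount of 1, except over the 718 regions with equal coordinates, where none was added. Members were found by the rule with python 3.11.15, numpy 2.4.6, pandas 2.3.3 and scipy 1.17.1, and plots were drawn with matplotlib 3.10.9. The steps were tested on simulated data. The members, the 16 gene lists and the tests were chosen with earlier results of these data known.

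The text names the 10 regions in genes with the widest margin between nearest DCL and control libraries, the 10 promoter regions with the smallest adjusted p, up to 3 genes of each list by adjusted p, the genes with the most regions (the rule asked for 5, but 14 genes tie after the first 3), the 2 regions on either side of the rule, and Tet1, Tet2, Tet3, Gap43, Atf3, Jun, Sox11, Sprr1a and Bdnf. The 8 regions of the class nearest the start site, all genes of a list with a region, and Sema3a, Ntn1, Sema6d, Dnmt3a and the genes with 3 regions were added after their values were seen. Intervals of shares are exact binomial ones (Clopper-Pearson). Libraries are pools of animals, and the value of 1 read sets the precision of each. The alternatives were another overlap, margin, adjusted p, level or pseudocount, high-copy loci kept, a wider gap to regions of PL against control, the nearest promoter class alone, reads before scaling, and each library left out. The values of 1 gene named by this rule are not reported here.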

Additional observations from a re-analysis of the deposited data

How the results depend on the processing

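Requiring the lowest DCL library to reach 1.5 times the highest control library left 494 of the 2425 regions, 270 of the 1371 genes, and 8 of the 89 list genes with a gained region. With reads before scaling the same rule found 124 regions, of which 72 are among the 2425, and 69 genes and 1 list gene. Leaving out each library in turn gave 2429 to 7759 regions, 1372 to 3713 genes, 90 to 205 list genes, and a promoter share of 8.41% to 10.8%. These counts can only rise, since each library left out loosens the rule. The highest values were those without the third-listed DCL library. The median log2 ratio was 0.82 to 1.52 over control and 1.09 to 1.76 over PL. With the regions held fixed, an alternative chosen after seeing the data, it was 0.81 to 1.49 and 1.09 to 1.81. The class nearest the start site alone held 0.33% of the regions. The other settings kept these counts within 1.5 times.

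Before scaling, the log2 ratio of DCL to control was below 0 in 25 of the 81 named regions. Among those reported here it was -0.30 at Erbb3, -0.27, -0.47 and -0.08 at 3 regions of Ksr1, -0.15 at Kcnma1, -0.21 at Cntn1, -0.31 at Rps10, -0.05 and -0.05 at 2 regions of Trerf1, -0.07 at Uhrf1, -0.33 at Klf9 and -0.06 at Tet2. It was -0.04 at Vcp, -0.15 at Grik3, -0.10 at Mir7227, -0.28 at Pik3cd, -0.03 at Kmt2c, -0.03 at Ccdc63, -0.40 at Ahcyl2, -0.27 at Gapdh, -0.24 at Tshz3, -0.12 at Dock1, -0.23 at Gsr and -0.17 at Smad1. This setting drops the authors' scaling factors, and the cause was not tested further. No paired analysis was possible because the libraries in a cell carry no replicate number.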
